A study of Mus musculus with 6 samples.

Results

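Immediate early genes and the feedback inhibitors of MAPK (mitogen-activated protein kinase) signalling were examined after knockdown of Gch1 in BV2, a mouse microglial line made permanent in culture. The members were a list of 41 genes chosen for their function, of which 39 had a row in the deposited table of 12327 genes. Egr1 and Fosb were not analysed here. All 39 were at 0.5 FPKM (fragments per kilobase of transcript, scaled to library size) or above in 3 or more of the 6 libraries, so all entered the test of 12222 genes. They fall into 10 AP-1 factors, 6 genes of the EGR, Ier and Myc kinds, 4 KLF factors, 5 mRNA decay factors, 6 dual-specificity phosphatases (DUSP), 5 Sprouty and Spred inhibitors and 3 further genes of ERK output.

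The knockdown group was 3 libraries with the genotype GCH1-KD, from cells infected for 48 hours with an adenovirus named Ad-shGCH1. The control group was 3 libraries with the genotype negative control, named Ad-NC in the treatment text and wild type in the series text. The labels leave unclear if controls were infected too, so any effect of infection itself and that of the knockdown cannot be told apart. All cells were of 1 line grown in high-glucose DMEM with serum, and no stimulus is named for either group. The libraries were made from total RNA depleted of ribosomal RNA. Separate cultures are not stated, so the spread behind each p-value is that among these libraries and may be technical. In bulk RNA a lower level in each cell and fewer cells with a transcript cannot be told apart.

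Immediate early genes are transcribed within minutes of a stimulus, through factors such as SRF and CREB that are already present in the cell and are switched on by MAPK and other kinases. Their transcripts are mostly short-lived, because decay factors such as ZFP36 bind AU-rich sequences in their 3′ UTRs. DUSP phosphatases remove phosphate from ERK, p38 or JNK, and Sprouty and Spred proteins act between the receptor and RAF, so the pathway induces its own inhibitors. In macrophages and microglia these genes accompany the response to Toll-like receptor ligands and growth factors.

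The RefSeq promoter table (GRCm38.p6; 250 bases before to 50 bases after an annotated start) held 29 of the 39 members, and the promoters of Dusp1, Zfp36, Dusp5 and Egr2 are shown because they carry the textbook binding sequences of early gene control. Capitals mark matches, on either strand, to the cAMP response element (TGACGTCA), the EGR sequence (GCGNGGGCG), the E-box (CACGTG) or the CArG box of SRF, and no matches to these overlap in the promoters shown. They lie at chr17:26508423-26508722 (minus strand) for Dusp1, chr7:28379179-28379478 (minus) for Zfp36, chr19:53528895-53529194 (plus) for Dusp5 and chr10:67537619-67537918 (plus) for 1 of 5 annotated starts of Egr2.
Dusp1: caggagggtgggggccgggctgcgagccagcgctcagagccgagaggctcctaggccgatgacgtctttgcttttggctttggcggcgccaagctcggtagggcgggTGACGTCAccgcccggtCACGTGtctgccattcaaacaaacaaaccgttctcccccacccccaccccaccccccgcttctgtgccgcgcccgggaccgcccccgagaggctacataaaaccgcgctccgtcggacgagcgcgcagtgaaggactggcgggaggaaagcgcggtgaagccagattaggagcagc
Zfp36: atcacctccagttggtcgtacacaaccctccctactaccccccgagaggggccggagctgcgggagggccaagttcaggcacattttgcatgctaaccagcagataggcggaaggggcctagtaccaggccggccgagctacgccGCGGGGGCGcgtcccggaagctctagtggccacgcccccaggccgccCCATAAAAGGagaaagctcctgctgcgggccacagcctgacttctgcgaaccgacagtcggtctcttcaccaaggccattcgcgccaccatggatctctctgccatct
Dusp5: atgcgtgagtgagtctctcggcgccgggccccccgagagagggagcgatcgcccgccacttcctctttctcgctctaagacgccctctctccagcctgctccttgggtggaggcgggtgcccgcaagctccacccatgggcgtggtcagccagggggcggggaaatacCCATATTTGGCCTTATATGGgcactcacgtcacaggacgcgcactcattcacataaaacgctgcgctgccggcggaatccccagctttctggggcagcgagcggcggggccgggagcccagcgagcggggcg
Egr2: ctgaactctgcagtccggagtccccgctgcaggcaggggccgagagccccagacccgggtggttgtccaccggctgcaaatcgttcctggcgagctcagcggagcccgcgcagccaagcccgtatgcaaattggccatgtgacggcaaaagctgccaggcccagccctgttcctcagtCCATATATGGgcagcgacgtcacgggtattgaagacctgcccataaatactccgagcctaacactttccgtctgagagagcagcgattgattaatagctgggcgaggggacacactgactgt

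The CArG box was present in promoters of 3 of the 29 members (Dusp5, Egr2 and Zfp36) and in 1.63% of all 32851 promoters of the table. The full cAMP response element was in 3 members (Btg2, Dusp1 and Maff) and in 1.79% of all promoters. The EGR sequence was in 8 of the 29 members, Zfp36 among them, and in 5.55% of all promoters. The E-box was also in 8 members, and in 7.15% of all. A loose form of the AP-1 sequence, TGANTCA with any base in the middle, was found in 1 member, Zfp36l1, as TGATTCA. It was in 7.81% of all promoters. The ETS sequence CCGGAAGT was in 0 members and 3.89% of all. Members were counted here by gene, with a match in any promoter of the gene, and the whole table by promoter. Counted by promoter, the members had 36. Of these 16.7% held the CArG box and 8.33% the cAMP response element. The EGR sequence and the E-box were each in 22.2%, the AP-1 sequence in 2.78% and the ETS sequence in 0%. Some windows of Egr2 overlap, so 1 CArG box of Egr2 was counted more than once. These are matches of letters in a short window and do not show binding.

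AU-rich nonamers (TTATTTATT, the high-affinity sequence of ZFP36-family proteins) lay in the annotated 3′ UTRs of 8 of the 39 members, or 20.5%, against 7.99% of 10455 protein-coding genes with a 3′ UTR of at least 50 bases. The first such site of 5 members is shown, with the nonamer in capitals. They were picked to show members whose groups did not overlap (Dusp1, Phlda1 and Zfp36 itself) and members whose groups did (Fos and Maff). Lower groups that did not overlap were found in 10 of all 39 members and in 8.36% of all genes tested. All positions are on GRCm38: chr17:26506159-26506187 (minus) for Dusp1, chr10:111508348-111508376 (plus) for Phlda1, chr7:28376951-28376979 (minus) for Zfp36, chr12:85477103-85477131 (plus) for Fos and chr15:79358778-79358806 (plus) for Maff.
Dusp1: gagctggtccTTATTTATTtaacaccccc
Phlda1: tggattatgaTTATTTATTagttttttta
Zfp36: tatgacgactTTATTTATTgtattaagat
Fos: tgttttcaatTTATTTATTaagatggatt
Maff: ttccacactcTTATTTATTgcacgaatct

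The members with a nonamer had a median log2 fold change of -0.13 (5 of 8 below control), and those without one -0.05 (21 of 31 below control). Over all protein-coding genes with a 3′ UTR the medians were -0.00056 with and 0.0023 without the nonamer. Fosl2, Zfp36l1 and Zfp36l2 were the other members with a nonamer, and the groups of each of them overlapped.

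The targeted gene checked the labels first. Gch1, the rate-limiting enzyme of tetrahydrobiopterin synthesis, was at 3.20, 2.93 and 3.43 FPKM in knockdown libraries, against 6.89, 7.22 and 7.23 FPKM in controls (44.8% of control, limma BH adjusted p = 0.00542). With the replicate number as a block in the fit, its limma BH adjusted p was 0.0604, above the threshold of 0.05. FPKM sums were 224291 to 230292 per library, Pearson's r between libraries was 0.989 to 0.993 on log2(FPKM + 1), and estimated depth was 6.32 to 7.61 gigabases of aligned sequence in knockdown libraries and 5.25 to 5.58 in controls. Depth thus differed between the groups with no overlap, and its part in the results was not tested. Of 14 microglial markers 13 had a row, among them Cd68, Tyrobp, Csf1r and Spi1, with summed levels of 1179 to 1219 FPKM in knockdown libraries and 1220 to 1230 FPKM in controls. These ranges did not overlap, but the gap was narrow. Of the 13 markers 7 were below control and 6 above, with a median log2 fold change of -0.01. Cd68, the most abundant of them, averaged 457.0 FPKM in knockdown and 486.0 FPKM in control. Aif1, with the smallest p of the 13, went the other way, at 2.53 FPKM in knockdown and 1.99 FPKM in control. Its groups overlapped (limma unadjusted p = 0.0409, BH adjusted p = 0.417). Fcgr3 was also higher, at 147.3 and 133.7 FPKM in the same order, with overlapping groups. The part of these marker levels in the results was not tested. P2ry12 was not analysed here. The homeostatic markers Tmem119 (0.60 FPKM in knockdown, 0.57 FPKM in control) and Cx3cr1 were near the lower limit. Cx3cr1 was at 0.43, 0.48 and 0.54 FPKM in knockdown libraries, against 0.60, 0.30 and 3.16 FPKM in controls, where control library 3 alone was high. Itgam also varied, at 19.5, 7.10 and 23.0 FPKM in knockdown libraries and 19.7, 31.1 and 7.22 FPKM in controls. Of 25 markers of neurons, astrocytes, oligodendrocytes, fibroblasts or mural cells and endothelium, 5 had a row and 0 of those were neuronal. Aldoc was at 25.6 FPKM in knockdown and 27.0 FPKM in control, and Flt1 at 22.1 and 22.3 FPKM. The others were lower, with Cnp at 5.40 and 5.15 FPKM, Vwf at 4.98 and 4.48 FPKM, and Acta2 at 0.52 and 0.51 FPKM.

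After knockdown most early genes and feedback inhibitors lay slightly below control, among them all 6 DUSP phosphatases, Fosl1, Jund, Zfp36, Spry4 and Phlda1, but no member passed the test. In limma, 0 of 39 had a p under 0.05 after Benjamini-Hochberg (BH) adjustment, against 0.0818% of all 12222 genes, and the lowest adjusted p was 0.268, for Fosl1. At an unadjusted p under 0.05 there were 8 members lower, against 4.82% of all genes, and 0 higher, against 6.47%. Without control library 1 that count of lower members was 4, and it was 4 to 10 with each library left out in turn. The count over all genes moved too: without knockdown library 1 it was 455, against 589 with all 6 libraries, and 7 members were lower. In 10 members all 3 knockdown libraries lay below all 3 controls, against 8.36% of all genes. In 0 members all 3 lay above, against 9.99% of all genes.

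Below control were 26 of 39 members, against 47.0% of all genes, and the median log2 fold change was -0.06, against 0.01 over all genes tested. Fold changes are knockdown minus control on log2(FPKM + 1). The members' summed level was 900.4, 915.9 and 938.8 FPKM in knockdown libraries, against 981.0, 962.8 and 947.3 FPKM in controls. Every knockdown sum was below every control sum, with a narrow gap between knockdown library 3 and control library 3.

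The 95% interval of the fold change lay within 1.5-fold either way for 37 of the 39 members, the exceptions being Egr2 and Zfp36l1, and within 1.2-fold for 25. Within a group the SD was a median of 5.27% of the mean in knockdown libraries and 5.49% in controls.

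**Figure D1:**
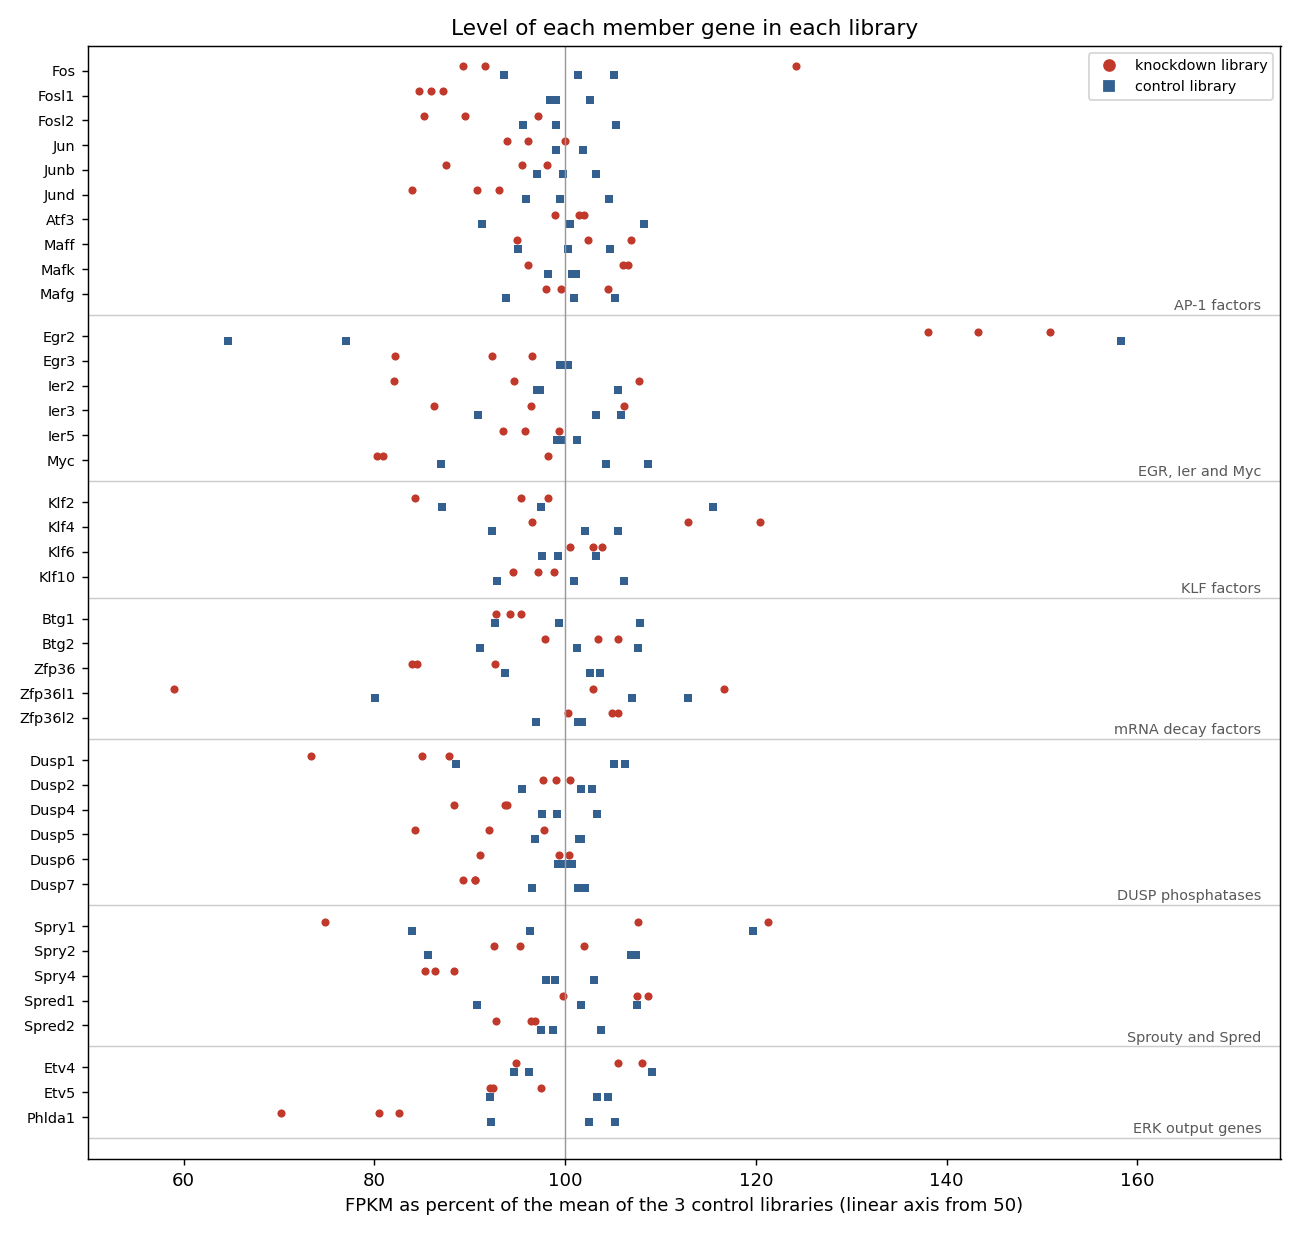
Level of each member in each library, as FPKM in percent of the mean of the 3 control libraries on a linear axis that starts at 50; red circles are the 3 knockdown libraries and blue squares the 3 controls. Most red points lie between 80 and 110, and the points of Egr2 span the widest range, followed by Zfp36l1 and Spry1.

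GC content moved with the comparison and the members are rich in it. Their transcripts had a median GC of 54.4%, against 50.1% for protein-coding genes tested. Across 10684 protein-coding genes, Spearman's rho between a library's deviation and GC content was -0.36, -0.20 and 0.07 in knockdown libraries and 0.27, -0.25 and 0.42 in controls. Of the 2954 protein-coding genes with GC at or above the members' median, 64.5% were below control. The median log2 fold change of these genes was -0.03, against -0.06 for the members. The members' own share, 66.7%, is over all 39, among them genes of lower GC such as Spred1 (41.2%). These shares are thus of unlike sets, and members of high GC were not counted apart. The trend along GC content and transcript length was then removed from each library. This left 25 of 39 members below control (6079 of all 12222 genes), with a median log2 fold change of -0.06. After the removal 1 member, Dusp2, changed sign, and the lowest BH adjusted p in limma was 0.282, for Fosl1.

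**Figure D2:**
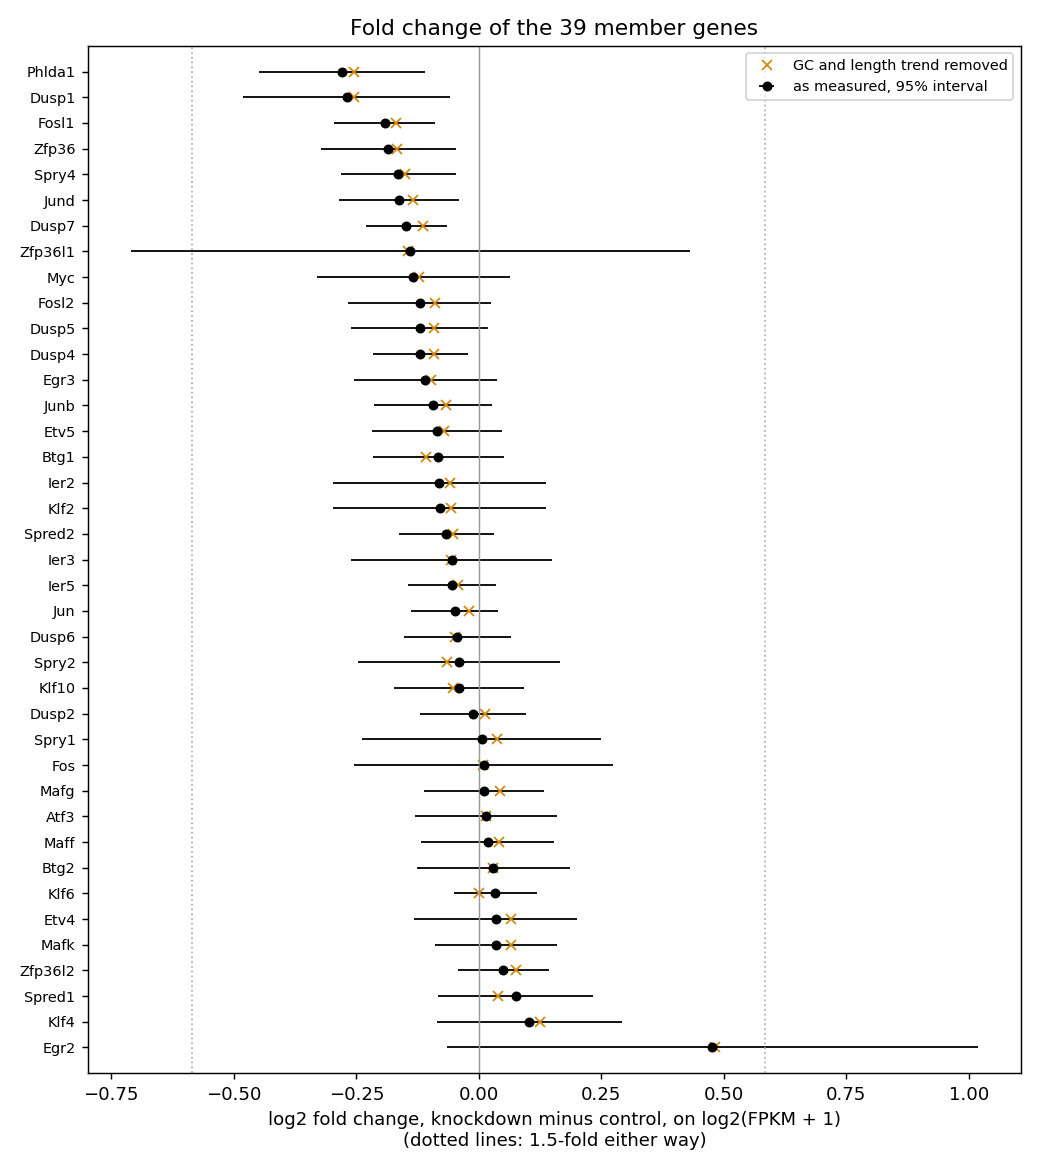
Log2 fold change of each of the 39 members, knockdown minus control on log2(FPKM + 1), ordered from lowest to highest; black points have 95% intervals from limma and orange crosses are the values with the GC and length trend removed. The crosses stay within the intervals of every member, and dotted lines mark 1.5-fold either way, which the intervals of Egr2 and Zfp36l1 cross.

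The AP-1 factors are basic leucine zipper proteins that bind DNA as dimers, and in these cells the Jun family was far more abundant than the Fos family. Jund was the most abundant member of all, followed among AP-1 genes by Atf3, Jun and Junb. The 3 measured Fos-family genes together had 9.09, 8.28 and 9.11 FPKM for every 100 Jun-family FPKM in knockdown libraries, against 8.71, 8.91 and 8.70 in controls. The ranges of this ratio overlapped.

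Fosl1 encodes FRA-1, a Fos-family protein without the transactivation domain of FOS (ENSMUSG00000024912.5; GRCm38 chromosome 19, 5447547 to 5455946, plus strand). It was at 6.82, 6.73 and 6.92 FPKM in knockdown libraries, against 7.81, 8.15 and 7.86 FPKM in controls. All 3 knockdown libraries were below all controls, by more than the spread within either group. The difference was -0.19 on the log2 scale (SE 0.04), with a limma BH adjusted p of 0.268, and 0.248 to 0.514 under the alternatives. Exons of Fosl1 overlap those of Ccdc85b on the opposite strand by 1055 bases, Ccdc85b was at 9.72 FPKM in knockdown and 9.52 FPKM in control, and the strand setting of the authors' quantification is not given in the sources used here.

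Jund, the Jun protein most often present in resting cells (ENSMUSG00000071076.6; chromosome 8, 70698949 to 70700616, plus strand), was at 114.7, 124.0 and 127.2 FPKM in knockdown libraries, against 142.9, 131.1 and 135.9 FPKM in controls. The groups did not overlap, although knockdown library 3 and control library 2 were close. This was a log2 fold change of -0.16 (SE 0.05), at an adjusted p of 0.356 in limma (BH). As a share of all measured AP-1 FPKM, Jund made up 36.4%, 38.2% and 38.1% in knockdown libraries, against 40.0%, 39.7% and 39.5% in controls. Jund also has the highest GC content of the members, 67.1%, and its fold change was -0.13 with the GC and length trend removed. Exons of Jund overlap those of the antisense gene Gm11175 on the opposite strand by 543 bases.

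The other Jun genes differed less. Jun, the founding AP-1 gene, was at 44.0, 42.3 and 41.3 FPKM in knockdown libraries and 43.6, 43.5 and 44.8 FPKM in controls, so the groups overlapped. Junb, which often opposes JUN at shared sites, was at 36.9, 40.2 and 41.3 FPKM in knockdown libraries and 43.4, 42.0 and 40.9 FPKM in controls. Knockdown library 3 lay inside the control range. Their log2 fold changes were -0.05 for Jun and -0.09 for Junb.

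Fos itself was at 5.42, 5.28 and 7.34 FPKM in knockdown libraries, against 6.21, 5.53 and 5.99 FPKM in controls. The highest and the lowest of the 6 values were both from knockdown cells, and the 95% interval of the log2 fold change was -0.26 to 0.27. Without knockdown library 3 the log2 fold change was -0.12, against 0.01 with all libraries, and its limma BH adjusted p was 0.606 (0.606 to 0.995 under all alternatives). Fosl2 was at a mean of 5.15 ± 0.34 FPKM in knockdown and 5.69 ± 0.28 FPKM in control (SD, n = 3 each). Its groups overlapped (log2 fold change -0.12).

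Atf3, a stress-induced repressor of the ATF family, averaged 59.7 ± 0.94 FPKM in knockdown libraries and 59.2 ± 5.05 FPKM in controls (SD, n = 3 each). The small Maf genes encode partners of AP-1 and NRF2 that lack an activation domain. Maff averaged 14.0 ± 0.84 FPKM in knockdown and 13.8 ± 0.67 FPKM in control, Mafk 7.97 ± 0.46 and 7.74 ± 0.12 FPKM, and Mafg 21.1 ± 0.71 and 20.97 ± 1.21 FPKM, in the same order. These 4 genes were at 100.7% to 102.9% of control, and the signs of Atf3, Maff and Mafg turned when 1 library was left out.

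Of the 10 AP-1 genes 5 were below control, against 47.0% of all genes tested. In 2 of those, Fosl1 and Jund, the groups did not overlap, against 8.36% of all genes with separate, lower groups. The median log2 fold change was -0.02. It was -0.06 without knockdown library 3, -0.05 without control library 2 and -0.01 without control library 3, and with the GC and length trend removed it was -0.01.

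Among the zinc finger early genes Egr2 stood apart from every other member. Egr2, a factor tied to myeloid differentiation and, in Schwann cells, to myelination (ENSMUSG00000037868.15; chromosome 10), was at 4.18, 4.57 and 4.34 FPKM in knockdown libraries, against 2.33, 4.79 and 1.96 FPKM in controls. Control library 2 had the highest value of all 6, while the other two controls were the lowest. Its log2 fold change of 0.48 (SE 0.23) was the largest of the 39 members in size, with limma's BH adjusted p at 0.489. Without control library 2 it was 0.77 and passed the test (limma BH adjusted p = 0.0426; 0.0426 to 0.718 under the alternatives), and without control library 3 it was 0.29. The lowest of the 6 libraries had an estimated 10.8-fold mean coverage of the transcript.

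Egr3, a relative of Egr2 induced by the same signals, was at 2.69, 2.40 and 2.81 FPKM in knockdown libraries, against 2.93, 2.92 and 2.90 FPKM in controls. The control values were nearly equal and all 3 knockdown values lay below them, but the difference had an unadjusted p above 0.05 (0.121 in limma, log2 fold change -0.11). Ier2, Ier3 and Ier5 are short, intron-poor early genes, and IER3 modulates ERK signalling and survival. Ier2 averaged 23.5 ± 3.18 FPKM in knockdown and 24.8 ± 1.199 FPKM in control, Ier3 55.3 ± 5.73 and 57.4 ± 4.62 FPKM, and Ier5 23.6 ± 0.73 and 24.5 ± 0.27 FPKM (SD, n = 3 each). All had overlapping groups.

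Myc, the growth regulator, was at 1.54, 1.87 and 1.53 FPKM in knockdown libraries, against 2.07, 1.66 and 1.98 FPKM in controls. It was the lowest of the members after Spry1, and its groups overlapped (log2 fold change -0.13, SE 0.08). Of the 6 genes of this role 5 were below control, against 47.0% of all genes tested. The median log2 fold change was -0.07, and -0.01 without knockdown library 1.

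KLF factors bind GC-rich promoter elements, and KLF2 and KLF4 restrain inflammatory activation of macrophages. Klf6, at 65.1, 63.0 and 64.5 FPKM in knockdown libraries and 62.2, 64.7 and 61.2 FPKM in controls, made up 79.9% ± 0.11 of the FPKM of the 4 KLF members in knockdown and 79.3% ± 1.19 in control (SD, n = 3 each). Klf2 averaged 3.06 ± 0.24 FPKM in knockdown and 3.30 ± 0.475 FPKM in control, Klf4 3.55 ± 0.40 and 3.23 ± 0.22 FPKM, and Klf10, a target of TGF-beta, 9.48 ± 0.21 and 9.79 ± 0.66 FPKM. All 4 had overlapping groups, and 2 were below control. The median log2 fold change was -0.00, and it had either sign when single libraries were left out (-0.03 without control library 1, 0.03 without control library 2).

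The decay factors shorten the life of other early transcripts. Zfp36 (tristetraprolin), which binds the AU-rich nonamer printed above and brings deadenylases to cytokine mRNAs (ENSMUSG00000044786.6; chromosome 7), was at 10.7, 10.6 and 11.7 FPKM in knockdown libraries, against 13.1, 11.9 and 13.0 FPKM in controls. The groups did not overlap, with control library 2 next to knockdown library 3. Zfp36 differed by -0.185 on the log2 scale (SE 0.06), with a limma BH adjusted p of 0.353.

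Its 2 relatives had overlapping groups. Zfp36l2 was at 32.9, 34.6 and 34.4 FPKM in knockdown libraries, against 31.8, 33.2 and 33.4 FPKM in controls. Zfp36l1 was at 23.7, 11.98 and 20.9 FPKM in knockdown libraries, against 16.3, 22.9 and 21.7 FPKM in controls. Both groups held a low library, and the SD in knockdown cells was 32.4% of the mean, the highest there of all members. Its log2 fold change of -0.14 (SE 0.24) turned to 0.14 without knockdown library 2 and was -0.32 without knockdown library 1. Exons of Zfp36l1 overlap those of the lincRNA gene Gm26669 on the opposite strand by 1490 bases. Differences between the 3 relatives were not tested.

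Btg1 and Btg2 are antiproliferative proteins that stimulate the CCR4-NOT deadenylase. Btg1 was at 25.9, 25.2 and 25.6 FPKM in knockdown libraries and 27.0, 29.3 and 25.2 FPKM in controls. Btg2 averaged 5.98 ± 0.23 FPKM in knockdown and 5.85 ± 0.49 FPKM in control (SD, n = 3 each). Neither had separate groups. Of the 5 decay factors 3 were below control. Their median on the log2 scale was -0.08 (-0.11 after removal of the GC and length trend), which was 0.02 without knockdown library 2 and -0.03 without control library 2.

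All 6 DUSP phosphatases were below control, and 3 of them had groups that did not overlap. Over all genes tested 47.0% were below control and 8.36% had separate, lower groups. The DUSP genes had a median GC of 56.4%, with Dusp6 at 49.0%. Of protein-coding genes with GC at or above the members' median, a set without Dusp6, 64.5% were below control. The 6 DUSP genes had a median log2 fold change of -0.12, and it was -0.14 to -0.10 with each library left out in turn. The summed level of the 6 was 185.7, 189.8 and 193.7 FPKM in knockdown libraries, against 213.2, 207.9 and 202.3 FPKM in controls. The highest knockdown sum was below the lowest control sum. Dusp4 and Dusp7, both with separate groups, made up a mean of 69.8% of the sum in knockdown libraries and 70.0% in controls, so the sum mostly reflects these genes. After removal of the GC and length trend the median was -0.09, 5 of 6 were below control, and the median of the decay factors was lower (-0.11).

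Dusp1 (MKP-1), a nuclear phosphatase of p38, JNK and ERK that limits cytokine production in macrophages (ENSMUSG00000024190.6; chromosome 17), was at 13.9, 16.1 and 16.6 FPKM in knockdown libraries, against 19.9, 20.1 and 16.8 FPKM in controls. Knockdown library 3 and control library 3 were nearly equal, and the other controls were clearly higher. The log2 fold change was -0.27 (SE 0.09, 95% interval -0.48 to -0.06), with a limma BH adjusted p of 0.361. Knockdown cells had 82.0% of the control level in FPKM.

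Dusp7, a cytoplasmic phosphatase of ERK, was at 63.0, 63.9 and 63.9 FPKM in knockdown libraries, against 72.1, 71.5 and 68.2 FPKM in controls. Values within the knockdown group were almost identical (SD 0.78% of the mean, the lowest there of all members). The log2 fold change was -0.15 (SE 0.04), with a limma BH adjusted p of 0.287. Dusp4, a nuclear phosphatase and the most abundant of the role, was at 66.1, 70.4 and 70.2 FPKM in knockdown libraries, against 77.4, 73.1 and 74.2 FPKM in controls. Its groups were separate (log2 fold change -0.12, SE 0.04, limma BH adjusted p = 0.375).

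Dusp5, a nuclear phosphatase of ERK whose promoter above holds a pair of CArG boxes, was at 9.26, 8.48 and 9.83 FPKM in knockdown libraries, against 10.2, 9.75 and 10.2 FPKM in controls. Knockdown library 3 and control library 2 overlapped narrowly. Dusp6, the cytoplasmic ERK phosphatase most used as a readout of ERK activity, was at 24.2, 21.9 and 23.9 FPKM in knockdown libraries and 24.2, 23.9 and 24.0 FPKM in controls. It overlapped, with a log2 fold change of -0.04 and a 95% interval of -0.15 to 0.07. Dusp2, an early gene of activated leukocytes, averaged 9.20 ± 0.13 FPKM in knockdown and 9.28 ± 0.36 FPKM in control (SD, n = 3 each).

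**Figure D3:**
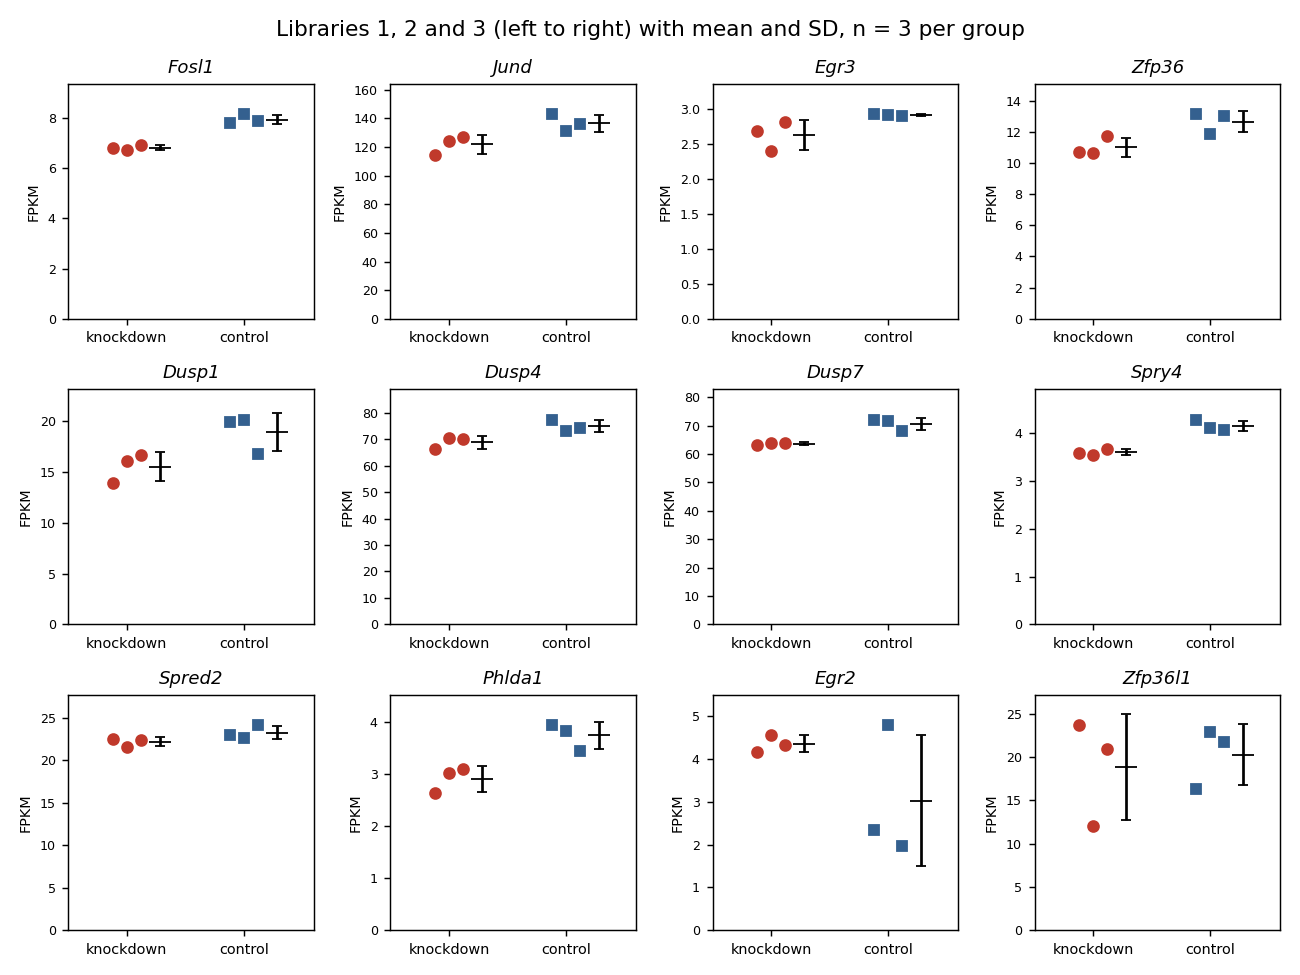
FPKM per library of the 10 members whose groups did not overlap, and of Egr2 and Zfp36l1; red circles are knockdown libraries, blue squares controls, and black bars the mean with SD (n = 3 each), on axes from 0. The gaps between groups are small against the levels, and control library 2 of Egr2 lies with the knockdown libraries.

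Sprouty and Spred proteins block RAS to RAF signalling below growth factor receptors. Spry4 was at 3.58, 3.54 and 3.67 FPKM in knockdown libraries, against 4.27, 4.10 and 4.07 FPKM in controls. Both groups were tight and did not overlap. On the log2 scale the difference was -0.16 (SE 0.05; BH adjusted p = 0.344 in limma). Spred2 was at 22.5, 21.6 and 22.4 FPKM in knockdown libraries, against 23.0, 22.7 and 24.1 FPKM in controls. Its groups were also separate, but by little (95.3% of control in FPKM, unadjusted p = 0.151 in limma).

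The others of this role overlapped. Spred1, the most abundant of the 5, was at 44.5, 44.1 and 40.9 FPKM in knockdown libraries and 41.7, 44.1 and 37.2 FPKM in controls. Spry2 averaged 11.3 ± 0.57 FPKM in knockdown and 11.7 ± 1.45 FPKM in control. Spry1 was the lowest member, at 0.66, 1.08 and 0.96 FPKM in knockdown libraries and 0.75, 1.06 and 0.85 FPKM in controls. The lowest estimated mean coverage over its 6 libraries was 4.15-fold. Of the 5 genes 3 were below control. The median log2 fold change was -0.04, and it was -0.08 without knockdown library 1, -0.02 without knockdown library 3 and 0.01 without control library 2.

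Phlda1, a target of ERK signalling that encodes a pleckstrin homology-like protein (ENSMUSG00000020205.8; chromosome 10), had the lowest ratio of all members. It was at 2.63, 3.02 and 3.10 FPKM in knockdown libraries, against 3.94, 3.84 and 3.46 FPKM in controls. The groups did not overlap, and knockdown cells had 77.8% of the control level. Its log2 fold change was -0.28 (SE 0.07, 95% interval -0.45 to -0.11), with a limma BH adjusted p of 0.292, and the pseudocount of 1 shrinks it at this level (-0.35 with a pseudocount of 0.1). Exons of Phlda1 overlap those of the lincRNA gene Gm28592 on the opposite strand by 624 bases.

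Etv4 and Etv5 are ETS factors whose transcripts are commonly read as ERK output. Etv5 was at 27.1, 27.0 and 28.5 FPKM in knockdown libraries and 30.6, 27.0 and 30.3 FPKM in controls, where control library 2 lay with the knockdown libraries. Etv4 averaged 5.84 ± 0.40 FPKM in knockdown and 5.68 ± 0.45 FPKM in control (SD, n = 3 each), and its groups overlapped. The 3 genes had a median log2 fold change of -0.08, which was -0.14 without control library 2 and -0.05 without control library 1.

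Other genes of the same pathway, from lists made with earlier results of these data known, had 0 members past the limma BH threshold. Of 25 genes of the RAS to ERK cascade 14 were below control (median log2 fold change -0.01). ERK1 (Mapk3) was at 49.3, 49.0 and 58.5 FPKM in knockdown libraries, against 59.8, 59.2 and 61.8 FPKM in controls, and the scaffold gene Gab2 had a log2 fold change of -0.13. Both had separate groups, at an unadjusted p of 0.0216 for Mapk3 and 0.0125 for Gab2 in limma. Of 14 genes of the p38 and JNK cascade 9 were below control (median -0.04). The p38 kinase gene Mapk14 was at 9.90, 8.69 and 8.75 FPKM in knockdown libraries, against 17.8, 17.4 and 10.6 FPKM in controls, with control library 3 close to the knockdown values.

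The transcription factors that switch on early genes, with 14 of 19 below control, had a median log2 fold change of -0.04. After removal of the GC and length trend 10 of 19 were below control and the median was -0.02. Atf1, a CREB relative, went the other way, at 23.9, 24.3 and 24.2 FPKM in knockdown libraries and 16.2, 21.6 and 20.7 FPKM in controls (log2 fold change 0.31, limma BH adjusted p = 0.356). Of 21 further immediate early genes 14 were below control (median -0.05), and 12 after that removal (median -0.02). Among these the kinase gene Plk2 was at 87.3, 90.1 and 86.3 FPKM in knockdown libraries, against 104.0, 105.2 and 93.7 FPKM in controls, and the nuclear receptor gene Nr4a1 at 2.27, 2.61 and 2.72 FPKM in knockdown, against 3.13, 2.93 and 2.97 FPKM in control. Gadd45g, a growth arrest and stress gene, had its 3 knockdown libraries above the controls (8.64, 8.10 and 8.55 FPKM in knockdown, against 7.29, 6.66 and 6.91 FPKM in control).

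Further DUSP phosphatases, many of them acting on substrates other than MAPK, had 7 of 13 below control (median log2 fold change -0.00). The other KLF factors had 3 of 6 below control (median -0.01), and other AP-1 partners 3 of 9 (median 0.02), of which 1 was below after the removal (median 0.04). Of 9 other ERK feedback and output genes 6 were below control (median -0.04). One of them, the cyclin gene Ccnd1, had the lowest p of the pathway genes looked at, at 38.1, 37.7 and 38.2 FPKM in knockdown libraries, against 46.1, 45.3 and 45.9 FPKM in controls. Its log2 fold change was -0.26, with a limma BH adjusted p of 0.0718, and of 0.0395 after removal of the GC and length trend.

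Genes of the mRNA decay machinery lay on the other side of control from most members. Of 21 genes 3 were lower than control and 18 higher, against 5746 lower and 6476 higher of all 12222 genes tested. The median was 0.04 on the log2 scale, against 0.01 over all genes tested. It was 0.05 after removal of the GC and length trend, when 5 were below. Tob2, a BTG relative that recruits CCR4-NOT, was at 15.2, 15.2 and 15.8 FPKM in knockdown libraries, against 14.1, 13.5 and 14.3 FPKM in controls. The CCR4-NOT subunit gene Cnot11 was at 11.6, 12.3 and 12.2 FPKM in knockdown, against 11.0, 11.0 and 11.1 FPKM in control. Both had separate groups and a limma BH adjusted p of 0.356 for Tob2 and 0.383 for Cnot11. These genes have a lower GC content than the members (median 45.7%). Across protein-coding genes Spearman's rho between log2 fold change and GC content was -0.30.

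**Figure D4:**
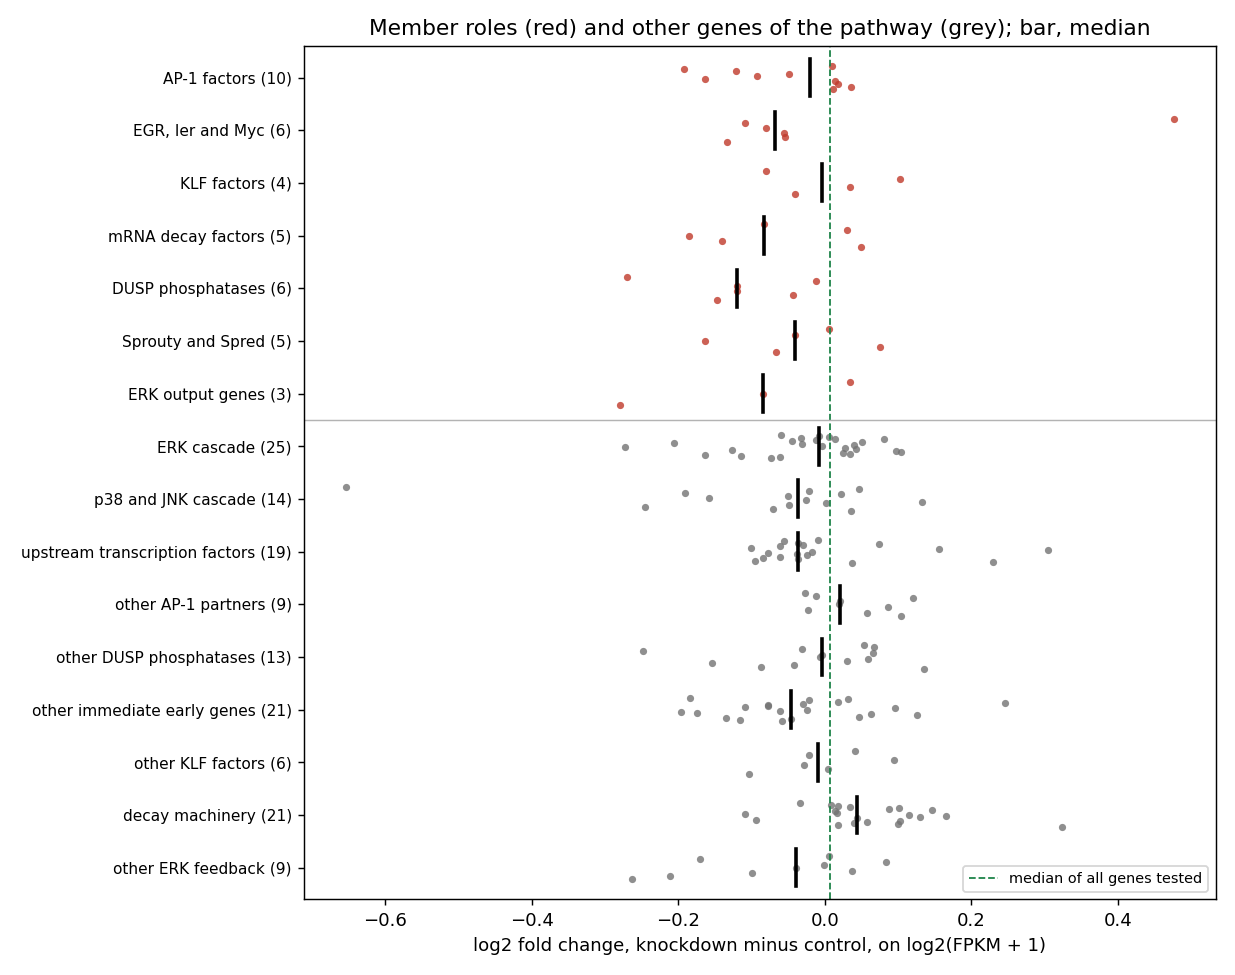
Log2 fold change, knockdown minus control on log2(FPKM + 1), of each gene in the 7 member roles (red) and in 9 lists of other pathway genes (grey), with the number tested in brackets; bars are medians and the dashed line is the median of all genes tested. The DUSP phosphatases all lie left of 0, and 18 of 21 decay machinery genes lie right of it.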

How the data were processed

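The unit of the deposited table is not named. Its numbers act like FPKM computed by the authors: in single-transcript genes, value times transcript length falls on whole multiples of 1 step per library (74.3% to 75.9% of values within 0.1 of a step, 20% by chance), which also gives the estimated depth. HISAT2, StringTie and edgeR, and the human build hg38, are named without versions or roles, per the submitters' processing notes, although the identifiers are mouse. Symbols and positions came from GENCODE M21 (GRCm38) by identifier without version (12300 of 12327 matched).

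Libraries were grouped by the genotype label. Genes that reached 0.5 FPKM in 3 or more libraries were fitted with limma 3.58.1 in R 4.3.3 (mean-variance trend) on log2(FPKM + 1). The p-values were BH adjusted over all 12222 genes. The test was tried on simulated data with changes larger than that of any member, so the trial does not cover changes of the members' size. Alternatives are given in the closing section. Promoters and 3′ UTRs were searched with Python 3.11.15. The members, gene lists and alternatives were chosen with earlier results of these data known. Named genes are Gch1, every member with a row, and up to 3 genes with the smallest p from each list of other pathway genes. Depth sets precision: 1 FPKM corresponds to 5.25-fold to 7.61-fold mean coverage.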

Additional observations from a re-analysis of the deposited data

How the results depend on the processing

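The log2 fold change of Gch1 was -0.96 with the replicate number as a block too, but its limma BH adjusted p was then 0.0604, and 0 genes passed over the table (10 without the block). At an unadjusted p under 0.05 in limma there were 1330 genes with the block and 1380 without it, and 9 members with it, 8 of them lower. Deviations of libraries with the same number correlated at 0.09, 0.06 and 0.09 across genes, each library correlating best with the one of its number, which the labels do not explain. Leaving out single libraries gave 6 to 18 passing genes (6 without knockdown library 2 or 3, 18 without control library 2), and 0 to 1 members, the 1 being Egr2 without control library 2. The median log2 fold change then ranged from -0.105 to -0.00975 for the EGR, Ier and Myc genes, from -0.0916 to 0.0227 for the decay factors and from -0.0768 to 0.0104 for Sprouty and Spred. Members below control numbered 24 to 30 in these fits, and 21 of 31 when only genes averaging 5 FPKM or above were kept. Over 577 values of members under all alternatives (the fits above, no filter, quantile normalization, pseudocounts of 0.1 and 0.5, scaling by median of ratios, the GC and length trend removed, and no mean-variance trend), 1 gained the threshold, and 13 members, none of them called, changed sign at least once. Under the alternatives other than the block and the left-out libraries, 0 members passed, with a lowest limma BH adjusted p of 0.248 to 0.285. Coverage is low for Spry1 and Myc.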
